A study of Homo sapiens with 3 samples.

Results

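DNA methyltransferases and ten-eleven translocation (TET) enzymes set and remove methyl groups on cytosines of DNA. The genes described here are DNMT1, UHRF1, DNMT3A, DNMT3B, DNMT3L, TET1, TET2 and TET3. They were chosen by name for their known roles, with earlier results of these data known. All 8 were found among the 39320 gene rows on the chromosome references, each with 1 row per library. RNA was sequenced in 3 libraries labelled HepG2, the name of an established line of liver cancer cells. All were labelled wild-type with no treatment named, so that there is 1 condition. The labels do not say whether the replicates came from separate cultures, and the spread between them may be technical.

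In mammalian cells, methyl groups are placed mostly on cytosines that precede a guanine (CpG). DNMT1 copies the methylation of the parental strand onto newly made DNA after replication, and UHRF1 binds the half-methylated sites and brings DNMT1 to them. DNMT3A and DNMT3B methylate DNA that carried no mark, and DNMT3L, which has no catalytic activity of its own, binds and stimulates them, mainly in germ cells and early embryos. TET1, TET2 and TET3 oxidise methylcytosine with iron and alpha-ketoglutarate, and the oxidised bases are then diluted by replication or cut out by repair. In proliferating cells, DNMT1 and UHRF1 are known to be transcribed with the genes of DNA replication.

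Levels are given in TPM, a unit of transcript abundance. TPM values are scaled for gene length and to the same total in each library. FPKM is the same quantity with another total. Coverage is the mean read depth over a gene and is scaled for its length but not for depth. The tables hold no read counts, and depth and counting error are unknown. Relative depth, taken as the largest coverage per FPKM of a library, was 1.16 in replicate 1 and 1.12 in replicate 2 when replicate 3 was set to 1. A mitochondrial tRNA row, TRNC, held between 16.9% and 17.2% of all TPM, which lowers the TPM of all other genes by a like factor. All 12 listed housekeeping genes reached 10 TPM in each library. The label was checked against 20 genes for proteins that hepatocytes secrete, with a summed level between 33.8 and 35.9 TPM. Of these, 18 stayed below 1 TPM in all libraries and 13, among them ALB and APOA1, were listed at 0. The exceptions were VTN with 23.7, 22.7 and 23.6 TPM and RBP4 with 11.6, 10.6 and 10.8 TPM, which made up most of the sum. Most of these markers were absent or near 0, so the check did not bear out the label. The libraries are still called by their label, and what cells they hold is not known from these values. Of 8 blood cell genes, 8 stayed below 1 TPM, with a summed level between 2.01 and 2.56 TPM, and PTPRC, CD3E and LYZ were listed at 0. Of 8 fibroblast and endothelial genes, 6 stayed below 1 TPM, with a summed level between 8.26 and 9.10 TPM, and COL1A1 and VWF were at or above it.

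The 3 TET genes are homologs whose levels lay far apart, and the 250 bases before an annotated start of each are shown for that reason, beside those of UHRF1, the member with the highest level. The windows come from RefSeq (GRCh38.p14), are written 5′ to 3′ and have every CpG, the dinucleotide CG on which the enzymes act, in capitals. Each lies outside all exons that GENCODE v44 gives for its gene. The TET1 window is chr10:68560087-68560336 on the plus strand, the TET2 window is chr4:105145625-105145874 on the plus strand, the TET3 window is chr2:73984660-73984909 on the plus strand, and the UHRF1 window is chr19:4909894-4910143 on the plus strand.
TET1: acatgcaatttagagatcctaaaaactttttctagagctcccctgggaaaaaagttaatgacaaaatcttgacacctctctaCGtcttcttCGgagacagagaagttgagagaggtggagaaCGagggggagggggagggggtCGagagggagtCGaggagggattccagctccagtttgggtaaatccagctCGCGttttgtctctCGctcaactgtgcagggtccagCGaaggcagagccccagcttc
TET2: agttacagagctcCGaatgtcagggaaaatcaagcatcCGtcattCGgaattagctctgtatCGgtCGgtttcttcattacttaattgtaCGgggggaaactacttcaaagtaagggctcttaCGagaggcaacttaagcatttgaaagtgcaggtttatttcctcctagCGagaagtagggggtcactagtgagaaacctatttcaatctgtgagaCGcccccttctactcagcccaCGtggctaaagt
TET3: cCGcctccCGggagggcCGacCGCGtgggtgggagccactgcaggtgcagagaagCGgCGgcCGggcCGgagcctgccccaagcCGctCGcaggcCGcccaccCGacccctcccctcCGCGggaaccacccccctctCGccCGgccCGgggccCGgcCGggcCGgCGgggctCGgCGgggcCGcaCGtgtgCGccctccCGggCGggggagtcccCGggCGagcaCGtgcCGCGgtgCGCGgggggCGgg
UHRF1: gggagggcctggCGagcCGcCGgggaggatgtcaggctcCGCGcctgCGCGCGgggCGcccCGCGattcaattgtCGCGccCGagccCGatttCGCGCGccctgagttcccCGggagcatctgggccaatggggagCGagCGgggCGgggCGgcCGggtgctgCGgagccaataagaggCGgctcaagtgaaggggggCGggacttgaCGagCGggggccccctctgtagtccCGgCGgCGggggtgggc

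The TET3 window holds 37 CpG, and 4.0% of all 35116 RefSeq windows of the same length hold as many or more. The UHRF1 window holds 32, a number reached by 9.52% of the windows. The TET2 window holds 10, reached by 52.2%, and the TET1 window holds 9, reached by 54.1%. The median over all windows was 11. CG reads the same on both strands, so 1 count serves for both. TET2 has another annotated start with 34 CpG before it, TET1 has further starts with 4 and 11, TET3 has one with 27 and UHRF1 has others with 28 and 41, so the count of a gene depends on the start taken. Of the 8 members, 7 had windows in the table, 18 in all with 3 to 41 CpG, and DNMT3L had none. The DNMT1 window held 21 CpG, those of DNMT3A held 12 to 33 and that of DNMT3B held 3. A link between these counts and the levels was not tested. The methylation of these sequences was not measured.

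UHRF1 and DNMT1, the pair that maintains methylation, were far above the other members. UHRF1 had 89.8, 88.5 and 83.3 TPM in replicates 1, 2 and 3, a mean of 87.2 ± 3.45 TPM (SD, n = 3). It lies on the plus strand of chromosome 19 (GRCh38, 4903080 to 4962154), and its canonical transcript in GENCODE v44 has 17 exons and encodes 793 residues. DNMT1 had 81.4, 79.5 and 77.4 TPM, a mean of 79.4 ± 2.01 TPM (SD, n = 3). It lies on the minus strand of the same chromosome (10133344 to 10195135), with 41 exons and 1632 residues. The highest DNMT1 value was below the lowest UHRF1 value, so the groups of 3 values did not overlap. The means exceeded those of 87.3% and 86.0% of the 13753 rows with a mean of at least 1 TPM. Together both genes made up most of the summed TPM of the 8 members, with 42.6% ± 0.460 for UHRF1 and 38.8% ± 0.504 for DNMT1 (SD, n = 3).

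The de novo enzymes were far below DNMT1. DNMT3A (chromosome 2, minus strand, 25232961 to 25342590) had 9.02, 8.47 and 7.70 TPM in replicates 1, 2 and 3, a mean of 8.40 ± 0.661 TPM (SD, n = 3). DNMT3B (chromosome 20, plus strand, 32762385 to 32809356) had 7.70, 6.80 and 7.79 TPM, a mean of 7.43 ± 0.548 TPM (SD, n = 3). DNMT3A was the higher in replicates 1 and 2 and the lower in replicate 3, and their ranges overlapped. The regulator DNMT3L (chromosome 21, minus strand, 44246339 to 44262216) had 5.26, 4.43 and 4.21 TPM, a mean of 4.63 ± 0.555 TPM (SD, n = 3). Its highest value was below the lowest of DNMT3A and of DNMT3B. By summed TPM, DNMT3A made up 41.0% ± 1.95, DNMT3B 36.4% ± 2.76 and DNMT3L 22.6% ± 1.29 of the de novo group (SD, n = 3).

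Of the TET enzymes, TET3 was the highest and TET1 was near 0. TET3 (chromosome 2, plus strand, 73982036 to 74135394) had 15.1, 13.9 and 12.9 TPM in replicates 1, 2 and 3, a mean of 14.0 ± 1.12 TPM (SD, n = 3). TET2 (chromosome 4, plus strand, 105145875 to 105279803) had 4.11, 3.62 and 3.52 TPM, a mean of 3.75 ± 0.315 TPM (SD, n = 3). TET1 (chromosome 10, plus strand, 68560337 to 68700794) had 0.0611, 0.0591 and 0.0714 TPM. The ranges of the 3 genes did not overlap. TET3 held 78.6% ± 0.477, TET2 21.1% ± 0.447 and TET1 0.362% ± 0.0625 of their summed TPM (SD, n = 3). As background, TET1 and TET3 carry a CXXC zinc finger that binds CpG, and TET2 does not.

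**Figure D1:**
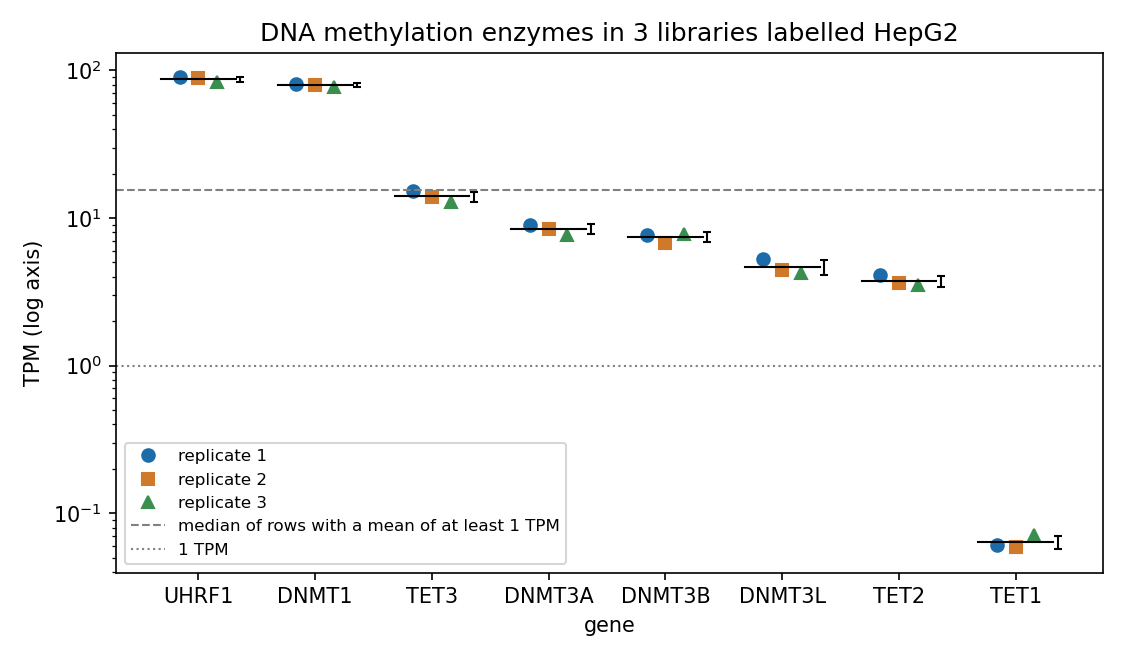
TPM of the 8 genes on a log axis in replicates 1, 2 and 3, with a horizontal bar at the mean of 3 libraries and a vertical bar of 1 SD on either side of it. UHRF1 and DNMT1 lie between 77.4 and 89.8 TPM, TET3 near the median of rows with a mean of at least 1 TPM (15.4 TPM), and TET1 below 0.1 TPM.

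In order of mean TPM the members were UHRF1, DNMT1, TET3, DNMT3A, DNMT3B, DNMT3L, TET2 and TET1. Of the 7 pairs of neighbours, DNMT3A and DNMT3B overlapped. DNMT3L and TET2 did not overlap, but the lowest value of DNMT3L (4.21 TPM) lay close to the highest of TET2 (4.11 TPM). At least 1 TPM in every library was reached by 7 of the 8 members and not by TET1. The same limit was reached by 33.8% of all gene rows and by 59.5% of the 18743 rows with the symbol of a protein-coding RefSeq gene. TET3 exceeded 47.6%, DNMT3A 34.9%, DNMT3B 32.5%, DNMT3L 23.2% and TET2 19.6% of the rows with a mean of at least 1 TPM. These shares depend on the rows compared, and for TET2 the share was 13.0% among protein-coding rows at that level and 71.9% among all rows.

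The members were compared with each other within each library, since no second condition exists. Differences are on the log2(TPM + 1) scale, which understates those of low genes, and were tested by flipping signs in an exact permutation test (two-sided, 3 libraries), with Benjamini-Hochberg adjustment over 8 ratios. The smallest p that 3 libraries allow is 0.25, so that no difference could pass 0.05. DNMT1 was above DNMT3A by 3.10 ± 0.07 and above DNMT3B by 3.26 ± 0.11 (SD, n = 3; exact p = 0.25, adjusted p = 0.286), in 3 of 3 libraries each. By the geometric mean of the TPM ratios without a pseudocount, these are 9.48 and 10.7 times as high. By coverage, the difference to DNMT3A was 6.53 ± 0.04 and that to DNMT3B 3.58 ± 0.11 on the log2(coverage + 1) scale (SD, n = 3), and the share of DNMT3A in the sum of DNMT1, DNMT3A and DNMT3B was 0.793% by coverage against 8.81% by TPM. TET3 was above TET2 by 1.66 ± 0.04 (SD, n = 3; exact p = 0.25, adjusted p = 0.286), or 3.73 times as high. TET3 was above TET1 by 3.81 ± 0.11 and TET2 above TET1 by 2.16 ± 0.10 (SD, n = 3; exact p = 0.25, adjusted p = 0.286). Since TET1 is far below the pseudocount, these depend on it and were 6.42 and 4.55 with a pseudocount of 0.1, and the ratios without one were 219 and 58.7. The sum of DNMT1, DNMT3A and DNMT3B exceeded that of the TET genes by 2.36 ± 0.07 (SD, n = 3; exact p = 0.25, adjusted p = 0.286), or 5.36 times. The sign of each of these was shared by 3 of 3 libraries.

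The other pairs were close. The difference of DNMT1 to UHRF1 was -0.14, -0.15 and -0.10 in replicates 1, 2 and 3, a mean of -0.13 ± 0.02 (SD, n = 3; exact p = 0.25, adjusted p = 0.286). That of DNMT3B to DNMT3A was -0.20, -0.28 and 0.01, a mean of -0.16 ± 0.15 (SD, n = 3; exact p = 0.5, adjusted p = 0.5), about as large as its SD. By coverage both turned. DNMT1 was then above UHRF1 by 0.35 ± 0.03 and DNMT3B above DNMT3A by 2.95 ± 0.14 on the log2(coverage + 1) scale (SD, n = 3), each in 3 of 3 libraries. The other 6 ratios kept their direction by coverage.

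**Figure D2:**
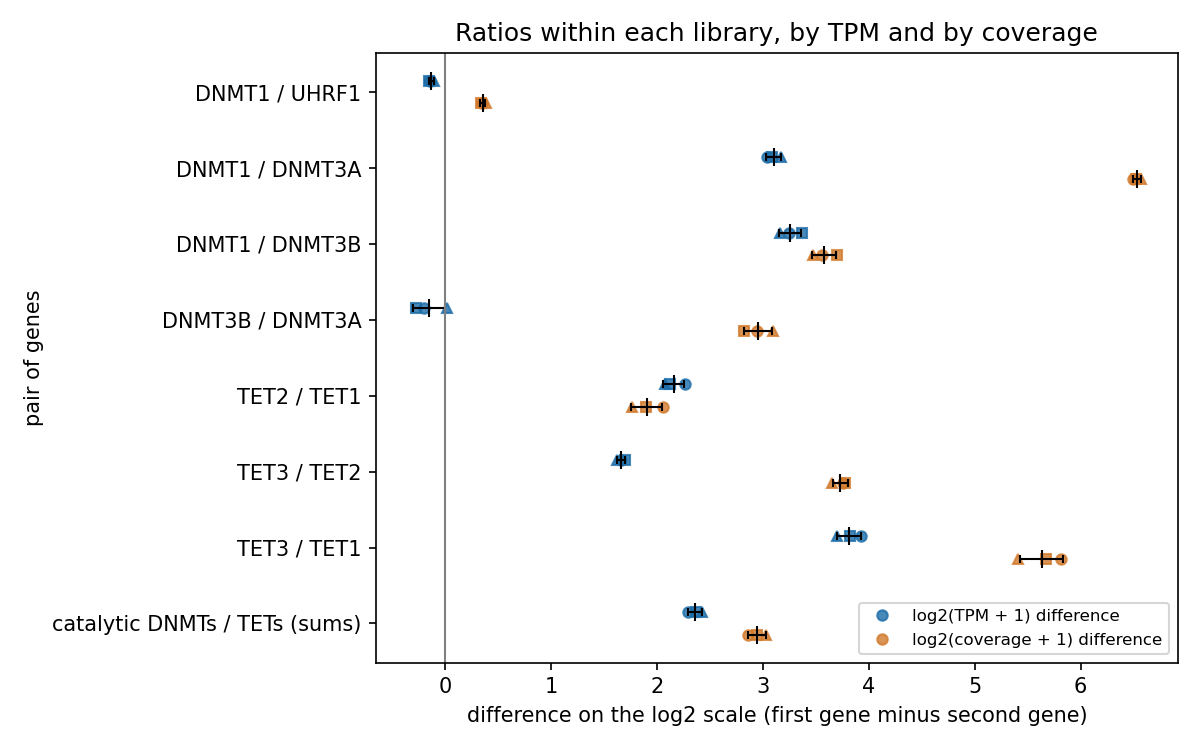
Differences between members within each library on the log2(TPM + 1) scale and the log2(coverage + 1) scale, with points for the libraries (circle, square and triangle for replicates 1, 2 and 3) and bars of 1 SD around the mean. The pairs DNMT1 to UHRF1 and DNMT3B to DNMT3A lie below 0 on average by TPM and above 0 by coverage.

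Coverage and TPM parted most for DNMT3A and TET2. The coverage of DNMT3A was 4.47, 4.14 and 3.34 in replicates 1, 2 and 3. That of DNMT3B was 41.0, 35.3 and 36.1, and that of DNMT3L was 33.0, 27.2 and 23.1. DNMT3A was thus the highest of the de novo group by mean TPM but the lowest by coverage in 3 of 3 libraries, and it made up 5.75% ± 0.433 of the group's summed coverage (SD, n = 3). TET2 had a coverage of 4.16, 3.57 and 3.15, against 68.9, 61.8 and 51.1 for TET3. The log2 difference of TET3 to TET2 accordingly rose from 1.66 by TPM to 3.73 ± 0.07 by coverage (SD, n = 3). DNMT1 had 493, 472 and 411 and UHRF1 had 388, 374 and 315, the highest coverage of the members, and TET1 had 0.244, 0.231 and 0.225.

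The ratio of coverage to FPKM was set relative to the highest ratio in each library, which puts it between 0 and 1. It was 0.0792 for DNMT3A and 0.162 for TET2 as means of 3 libraries, and 0.689 for UHRF1, 0.723 for TET3, 0.846 for DNMT3B, 0.967 for DNMT1 and 0.999 for DNMT3L. Of the 7 members with at least 1 FPKM in every library, 2 were thus below 0.5, against 28.9% of the 11965 rows with that level. Only 3.44% of these rows had a lower ratio than DNMT3A and 8.39% a lower one than TET2, while the median was 0.789. The annotation gives both genes protein-coding transcripts of very unequal length. Those of DNMT3A run from 589 to 9501 nt and those of TET2 from 865 to 10166 nt in GENCODE v44. DNMT3L, with the highest ratio, has 3 protein-coding transcripts of 1014 to 1706 nt. DNMT1 has protein-coding transcripts from 231 to 7157 nt and a ratio near 1. Whether the rows were quantified on these transcripts is not given in the sources used here. The part of transcript length in these ratios was not tested, and the values of the tables are not divided among transcripts.

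**Figure D3:**
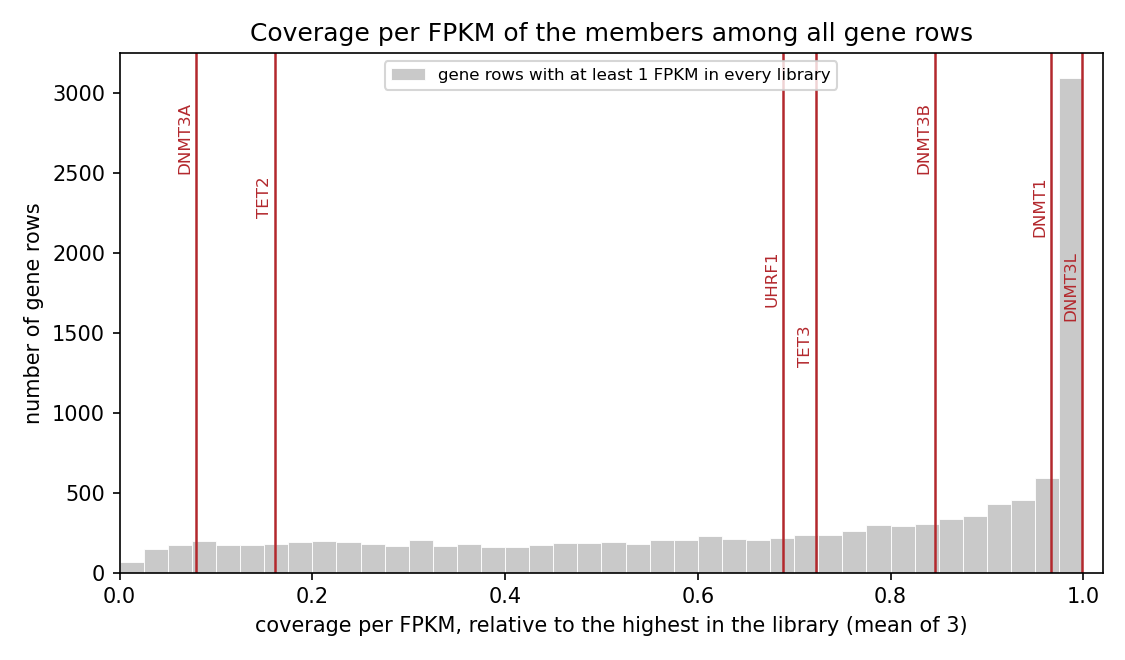
Histogram of the ratio of coverage to FPKM, relative to the highest in each library (mean of 3), over the 11965 gene rows with at least 1 FPKM in every library. Vertical lines mark 7 members, of which DNMT3A (0.0792) and TET2 (0.162) lie at the low end and DNMT3L (0.999) at the high end.

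Rows of other genes overlapped 5 of the members, and the strand setting of the quantification is not given in the sources used here, so reads in shared exons cannot be assigned by strand. LOC105372833, on the plus strand within DNMT3L (44250813 to 44251521), shares 290 bp with DNMT3L exons of GENCODE v44. It had 2.26, 2.72 and 2.99 TPM in replicates 1, 2 and 3, while DNMT3L had 5.26, 4.43 and 4.21 TPM. The antisense row TET2-AS1 overlaps TET2 over 108450 bp and was listed at 0 in all libraries. ARRDC5, which covers the start of UHRF1 on the opposite strand, was also listed at 0. LOC107985898, which shares 325 bp with TET3 exons on the opposite strand, had 1.07 TPM in replicate 1 and was listed at 0 in the others. The microRNA rows MIR1301 within DNMT3A and MIR4747 within UHRF1 touch no exon of these genes. No row overlapped DNMT1, DNMT3B or TET1.

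The spread between the libraries is given for all members, and for those with a mean above 5 TPM it was set beside that of rows at like levels. The coefficient of variation of TPM was 2.53% for DNMT1, 3.96% for UHRF1, 7.37% for DNMT3B, 7.87% for DNMT3A, 7.99% for TET3, 8.39% for TET2, 10.3% for TET1 and 12.0% for DNMT3L. The median was 4.19% over all rows with 50 to 100 TPM, where UHRF1 and DNMT1 lie, and 5.41% over those with 10 to 50 TPM, where TET3 lies. It was 7.45% over those with 5 to 10 TPM, where DNMT3A and DNMT3B lie. No such median was taken for DNMT3L, TET2 and TET1, whose means lie below 5 TPM. UHRF1, DNMT1, TET3, DNMT3A, DNMT3L and TET2 were highest in replicate 1 and lowest in replicate 3. These are 6 of the 7 members with a mean of at least 1 TPM, against 35.6% of all rows at that level. The relative depth was also highest in replicate 1 and lowest in replicate 3, and its part in this was not tested. After median-of-ratios scaling, the number was 4, against 19.4% of the rows.

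The genes with the most similar levels were sought among all rows with a protein-coding symbol, by the largest difference in log2(TPM + 1) over the 3 libraries. For UHRF1 they were MGAT4B and MRPS9 with differences of at most 0.02, and for DNMT1 SRSF11 and DDX56 with at most 0.02. TET3 was followed by ZNF469 within 0.0042 and ZKSCAN1 within 0.01. DNMT3A was closest to IQSEC1 and SGCB, DNMT3B to POGLUT1 and FBXO17, DNMT3L to LNPK and ZBTB46, and TET2 to HIVEP2 and STOX2, all within 0.05. With 3 libraries of 1 condition, this likeness is one of level.

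Other genes of maintenance methylation had means from 11.4 to 200.2 TPM. All 10 on the list, DNMT1 and UHRF1 included, had at least 10 TPM in every library, a level reached by 20.7% of all gene rows. The median of the 10, with DNMT1 and UHRF1 in it, was 58.4 TPM. It was 4.99 TPM over the protein-coding rows, 0.0619 TPM over all rows and 15.4 TPM over those whose mean reached 1 TPM. Over all lists of the pathway, the 48 genes that are no members had a median of 36.9 TPM. PCNA, the sliding clamp of replication to which DNMT1 binds, was the highest at 200.2 ± 4.68 TPM (SD, n = 3). USP7, a deubiquitinase that binds DNMT1 and UHRF1, had 83.6 ± 4.60 TPM, and HELLS, a chromatin remodeller needed for methylation of repeats, had 37.3 ± 1.93 TPM (SD, n = 3). UHRF2, the paralog of UHRF1, was the lowest at 11.4 ± 1.14 TPM (SD, n = 3), below the median of 15.4 TPM.

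TET partners and the steps after oxidation were covered by 12 genes together. Of these, 11 had at least 1 TPM in every library, and the median was 36.4 TPM. That limit was reached by 33.8% of all gene rows and 59.5% of the protein-coding rows. TDG, a glycosylase that removes some of the oxidised bases, had 51.5 ± 4.08 TPM (SD, n = 3). OGT, which binds TET2 and TET3, had 81.0 ± 4.35 TPM, and APEX1, the endonuclease of base excision repair, was the highest at 247 ± 10.7 TPM (SD, n = 3). CXXC5, a zinc finger protein related to the CXXC domain that TET2 lacks, had 70.1 ± 5.65 TPM (SD, n = 3), while its paralog CXXC4 stood at 0 in each library. Of the 7 enzymes around alpha-ketoglutarate and the metabolites that compete with it, 7 had at least 1 TPM, and SDHA, a subunit of succinate dehydrogenase, was the highest at 329.8 ± 7.70 TPM (SD, n = 3). IDH1, which makes alpha-ketoglutarate in the cytosol, had 89.7 ± 3.60 TPM and its mitochondrial counterpart IDH2 19.6 ± 1.35 TPM (SD, n = 3).

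The 8 listed genes from families that read methylated CpG all had 10 TPM or more in every library, with a median of 36.6 TPM. They ranged from ZBTB33, known as Kaiso, at 14.7 ± 1.01 TPM to ZBTB4 at 56.2 ± 2.84 TPM (SD, n = 3). The 5 CXXC proteins that bind unmethylated CpG also all had at least 10 TPM, from KMT2A at 16.5 ± 2.18 TPM to KDM2A at 37.4 ± 1.82 TPM (SD, n = 3). A level of 10 TPM in every library was reached by 20.7% of all gene rows.

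Of 8 genes that supply S-adenosylmethionine, the methyl donor, or clear its product, 7 had at least 1 TPM in every library. MAT2A, the synthetase of most tissues, had 217 ± 6.34 TPM, and AHCY, which hydrolyses the inhibitory product of methyl transfer, was the highest at 265.5 ± 11.4 TPM (SD, n = 3). MAT1A, the synthetase typical of liver, had 0.0151 TPM in replicate 3 and stood at 0 in the others. Of the 56 listed pathway genes, 53 reached 1 TPM in each library, and the exceptions were TET1, CXXC4 and MAT1A. Of the 48 that are no members, 46 did so, with a median of 36.9 TPM, above the 7.91 TPM of the 8 members. The limit of 1 TPM was reached by 33.8% of all gene rows and 59.5% of the protein-coding rows.

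Genes at which promoter methylation is known or thought to hold germ cell expression off in somatic cells were also listed. Their methylation was not measured, and its part in their levels was not tested. Of 15 such genes, 15 stayed below 1 TPM in every library, as did 38.9% of the protein-coding rows, and 7 were listed at 0, among them DAZL, DDX4 and MAEL. The highest was TDRD9, with 0.514, 0.385 and 0.374 TPM in replicates 1, 2 and 3. DNMT3L, itself known for germ cells and early embryos, was above each of them in every library. Of 8 genes of pluripotent and germ cells, POU5F1 had 4.57, 4.20 and 4.26 TPM, and the other 7, NANOG and DPPA3 included, were listed at 0 in all libraries. The summed level of that list was between 4.20 and 4.57 TPM, and its part in the level of DNMT3L was not tested. POU5F1 has near-identical pseudogenes with which reads can be shared, so its value is uncertain.

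**Figure D4:**
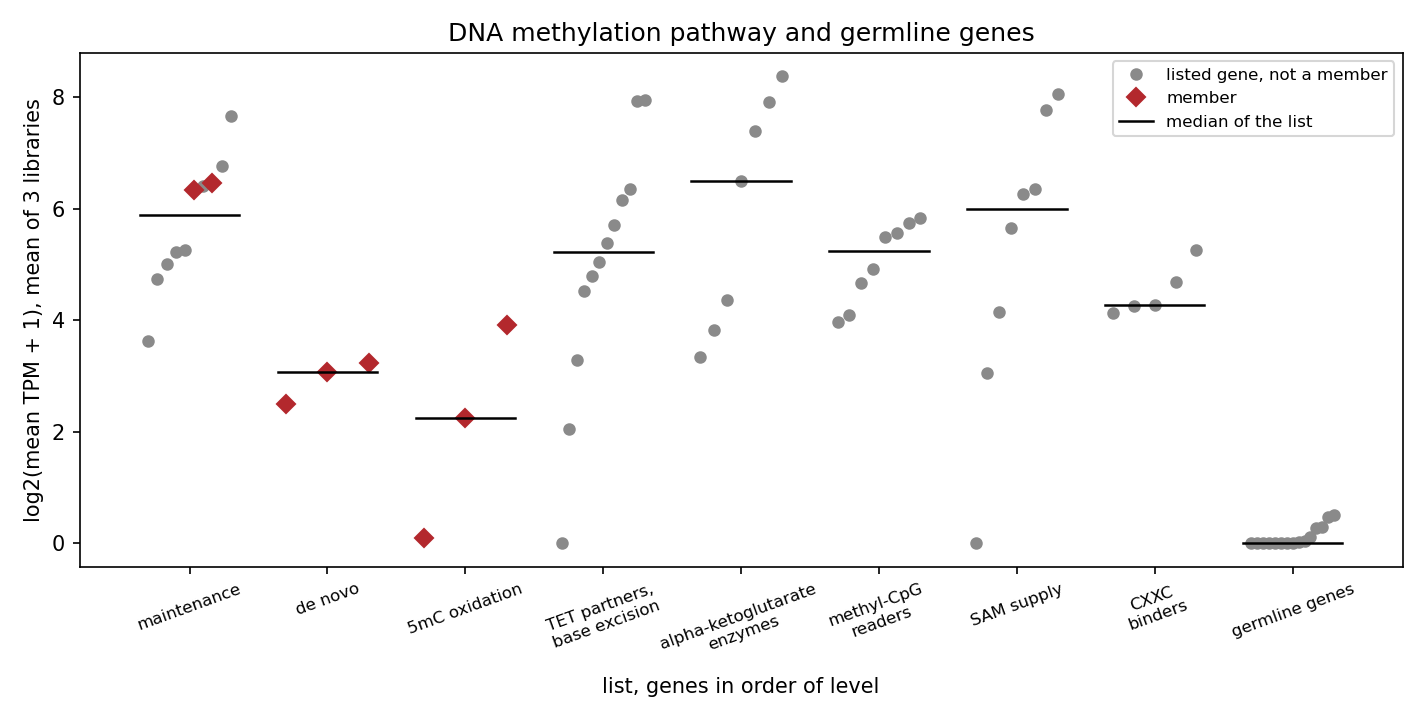
Mean level of each listed gene on the log2(TPM + 1) scale by list, with members as diamonds, other genes as circles and a bar at the median of the list. The maintenance list, with DNMT1 and UHRF1 in it, centres on 58.4 TPM. The de novo and oxidation lists hold members only, and the germ cell genes lie below 1 TPM.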

How the data were processed

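RNA-seq of 3 libraries labelled wild-type HepG2 was analysed, as 1 group taken from the sample titles. The authors trimmed 150 bp paired-end reads with Trim Galore 0.6.2 and FastQC 0.11.8 and mapped them to GRCh38 with STAR 2.6.1a. StringTie is named in the submitters' processing notes, with the annotation and strand setting not given in the sources used here. The authors deposited TPM, FPKM and coverage of each gene, with 1 table per library. The deposited FPKM values are proportional to TPM within a library, and the deposited coverage signal is not scaled for library size.

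Rows were joined by name, strand and coordinates, and the 4069 on alternate or unplaced references were left out. Members were taken by gene name. The members and lists were chosen with earlier results of these data known. Named beside the members were the extremes of each list, listed genes with a described role or at low level, overlapping rows and the 2 closest genes of each member. Some listed genes are counted but not reported here by name. The depth per library is unknown, and precision is given as the SD over 3 libraries. Gene structures came from GENCODE v44, which has the same build but, for some members, other gene ends than the rows, and gene types and promoter windows from RefSeq. No batch is given in the labels. The replicate order, the search for closest genes and the median-of-ratios scaling were tested on simulated data from rows with at least 10 TPM. The sign-flip p was tested on 3 equal differences. Ratios, percentiles, coverage per FPKM and list counts were not tested in this way. Alternatives were another pseudocount, FPKM or coverage, other limits, median-of-ratios scaling, scaling without mitochondrially encoded genes and leaving out each replicate. Python 3.11.15, numpy 2.4.6, pandas 2.3.3 and matplotlib 3.10.9 were used.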

Additional observations from a re-analysis of the deposited data

How the results depend on the processing

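All libraries belong to 1 condition, so no samples could be paired across groups, and genes were compared within each library. By coverage in place of TPM, the log2 ratio of DNMT1 to UHRF1 reversed from -0.13 to 0.35 and that of DNMT3B to DNMT3A from -0.16 to 2.95. The other 46 of 48 alternative values of the ratios kept their direction. For a ratio with the same sign in every library, only coverage could reverse it. FPKM is proportional to TPM, and another pseudocount or a left-out replicate cannot change such a sign. By coverage, 2 of the 8 ratios reversed. Members with at least 1 TPM in every library numbered 7, and 3 with a minimum of 10 TPM. With each replicate left out, the count stayed at 7 members and 53 listed pathway genes. The ratios then ranged from -0.15 to -0.12 for DNMT1 to UHRF1, 3.06 to 3.13 for DNMT1 to DNMT3A, 3.20 to 3.31 for DNMT1 to DNMT3B, -0.24 to -0.09 for DNMT3B to DNMT3A, 2.10 to 2.20 for TET2 to TET1, 1.64 to 1.68 for TET3 to TET2, 3.76 to 3.87 for TET3 to TET1 and 2.33 to 2.39 for the summed DNMT genes to the summed TET genes. Such ranges are narrow by construction and say nothing of stability. Scaling without mitochondrially encoded genes raised every gene by 0.32 on the log2 scale, to 109 TPM for UHRF1 and 0.0800 TPM for TET1. By coverage, the percentile of DNMT3A among rows with a mean of at least 1 TPM moved from 34.9 to 5.12 and that of TET2 from 19.6 to 4.62. Among rows with a mean of at least 0.1 TPM, it was 61.5 for TET3, 52.2 for DNMT3A, 50.4 for DNMT3B, 43.6 for DNMT3L and 40.9 for TET2. Of the 49 alternative percentiles, 28 moved by more than the spread between replicates. These were all of those with other rows compared or with coverage. The 21 that stayed were those with a replicate left out. Median-of-ratios scaling and coverage, as alternatives for the number of members highest in replicate 1 and lowest in replicate 3, were chosen after the data were seen. The unknown depth limits TET1 and every gene listed at 0.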
